A study of Homo sapiens with 24 samples.

Results

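The CCN family is a group of 6 secreted proteins of the extracellular matrix, named in the array files as CTGF, CYR61, NOV, WISP1, WISP2 and WISP3, with the current symbols CCN2, CCN1, CCN3, CCN4, CCN5 and CCN6. The members were found by gene name among the 27263 genes named on the array, and each had 1 probe. The family was chosen by the response of CTGF to treatment, so all values of CTGF are given as a description, with no test. Messenger RNA was measured in HCT-116, a human colorectal cancer cell line with constitutive Wnt signaling. The cells were 1 stably transfected clone carrying the Tet repressor and a doxycycline-inducible DN-Tcf4, a Tcf4 that cannot bind beta-catenin and so represses Tcf target genes, and cells of all 4 groups carried both constructs. The groups were cells without either agent (Ctl), with 4 μg/ml doxycycline (Doxy), with 5 mM sodium butyrate (NaB), and with both (DoxyNaB), at 17.5 hr of butyrate. Each of 6 experiments gave 1 array for each group, 24 arrays in all, and arrays of the same experiment were compared with each other. The level of a probe is its signal divided by the 75th percentile of signals on the array, as log2, so that levels of 1 probe can be compared between arrays but levels of different probes cannot be compared with each other.

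CCN proteins are matricellular proteins. They are built from modules related to IGF-binding proteins, von Willebrand factor, thrombospondin and cystine knot growth factors, and they act outside the cell by binding integrins, proteoglycans, LRP receptors and growth factors. CTGF and CYR61 are immediate-early genes and classical targets of YAP and TEAD, the transcriptional arm of the Hippo pathway, and CTGF is also induced by TGF-beta through SMAD proteins. NOV is mostly linked to growth restraint. WISP1 and WISP2 carry the name of Wnt because they were found as genes induced by Wnt-1, and WISP2 lacks the cystine knot module that the other members have. Butyrate inhibits histone deacetylases and, in colorectal cancer cells, raises Wnt activity, and the design asks which butyrate responses depend on Tcf.

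The arrays set what could be measured. The share of spots well above background, a test made by the scanning software, was between 78.4% and 88.1% in experiments 2 to 4, which were scanned together, and between 52.7% and 62.6% in the others. Negative control spots had mean net signals between 48.4 and 248.9, highest on the DoxyNaB array of experiment 2 and the NaB array of experiment 3. Experiment 1 used 1 slide for the butyrate arrays and another for the rest, so that its butyrate effect and slide effect cannot be told apart, while the other experiments had 1 slide each. Of the 3 tested probes named TCF7L2, the gene of Tcf4, those that start at 114915968 and 114901475 on chromosome 10 (NCBI36) rose by 4.46 and 2.96 on the log2 scale in DoxyNaB against NaB cells (adjusted p = 1.8e-06 and 3.6e-05 from limma). The most 5′ probe fell by 1.25 (adjusted p = 0.0057). Doxycycline without butyrate changed these probes by between -0.17 and 0.36 (adjusted p from 0.619 to 0.921). All 7 epithelial marker genes were well above background on every array with a value, as labelled for a colonic cell line. In NaB cells EPCAM fell (-1.45, limma adjusted p = 3.6e-05), while the median change of the 7 was 0.30. The summed level of the 7 was between 210.2 and 300.2 on Ctl arrays and between 274.7 and 502.0 on NaB arrays. Of the 8 fibroblast, 5 endothelial and 5 leukocyte markers, 1, 0 and 1 were well above background on every array with a value. On all 24 arrays, 6 epithelial, 0 fibroblast, 0 endothelial and 1 leukocyte markers were so. COL3A1 was well above background on no array. The summed level of the fibroblast markers, relative to the 75th percentile, was between 0.37 and 0.55 on Ctl arrays and between 0.99 and 1.91 on NaB arrays. For endothelial markers it was between 0.11 and 0.24 on Ctl and between 0.20 and 0.80 on NaB arrays, and for leukocyte markers between 0.27 and 0.55 and between 0.82 and 1.15. The part of this shift in the CCN values was not tested.

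CTGF, CYR61 and NOV were well above background on all 24 arrays. WISP1 was so on 2 arrays, and WISP2 and WISP3 on 12 each. Probes entered the tests if 1 or more treatments had all 6 arrays well above background, which admitted 18984 probes of 15163 genes and 3 of the 6 members. Calls required a fold over 2 with a Benjamini-Hochberg adjusted p under 0.01 in a limma fit of all 24 arrays with the experiment as a block.

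**Figure D1:**
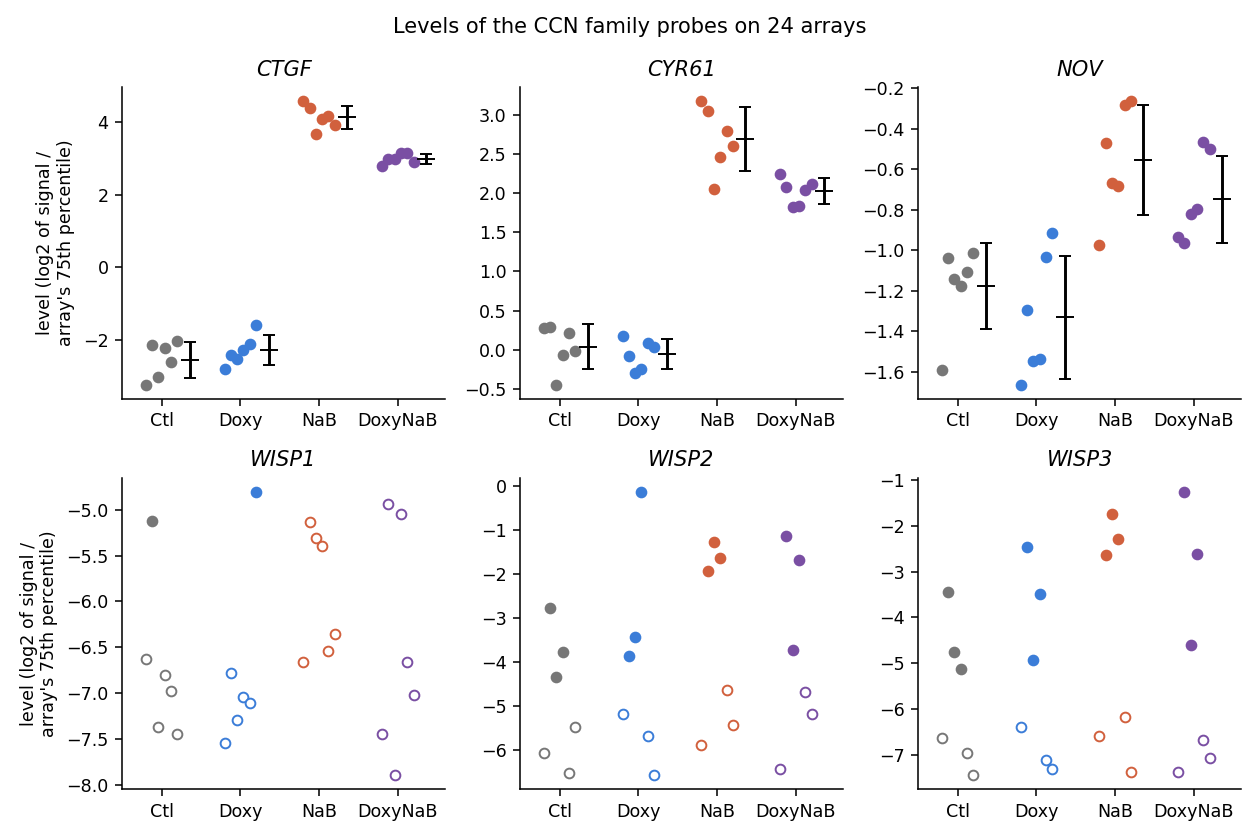
Level of the 1 probe of each CCN gene (log2 of signal over the 75th percentile of the array) on the 6 arrays of each treatment, in order of experiment. Filled points are well above background and open points are not, and bars give the mean and SD for the 3 genes measured on all arrays. CTGF and CYR61 lie in separate ranges with and without butyrate, NOV shifts by less, and the filled points of WISP2 and WISP3 are those of experiments 2 to 4.

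CTGF, the connective tissue growth factor of fibrosis and wound repair, went from a low to a high signal with butyrate. Its probe lies on the minus strand of chr6:132311823-132311882 (NCBI36). The level ran from -3.24 to -2.04 with a median of -2.43 on the Ctl arrays, and from -2.80 to -1.60 with a median of -2.36 on the Doxy arrays. On the NaB arrays it ran from 3.68 to 4.57 (median 4.14), and on the DoxyNaB arrays from 2.79 to 3.14 (median 2.99). In signal units the Ctl arrays were between 58.8 and 238.7 and the NaB arrays between 6889 and 19911. Every array with butyrate was above every array without it, and every DoxyNaB array was below every NaB array, whereas the Ctl and Doxy ranges overlapped. In bulk RNA, fewer cells with a transcript and less transcript for each cell cannot be told apart.

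The change in CTGF between NaB and Ctl arrays of the same experiment was 6.69 ± 0.63 on the log2 scale (SD, n = 6 experiments), which is 103-fold, and it ran from 5.95 in experiment 6 to 7.81 in experiment 1. It was 6.52 over the 3 experiments of the third scan and 6.38 over the 2 experiments of the fourth. Of the 18984 probes, 7 rose more, and CTGF stood at rank 8. With doxycycline present the butyrate response was smaller. DoxyNaB/Doxy was 5.29 ± 0.40 (SD, n = 6), or 39.1-fold, at rank 31 of the probes. The difference of the responses, NaB/Ctl minus DoxyNaB/Doxy, was 1.40 ± 0.47 (SD, n = 6) and was above 0 in 6 of 6 experiments, from 0.90 to 2.23. In DoxyNaB cells CTGF was at 45.3% of its NaB signal, a log2 change of -1.14 ± 0.39 (SD, n = 6) that was negative in 6 of 6. Doxycycline alone gave 0.26 ± 0.34 (SD, n = 6), higher in 4 of 6 experiments, which is within the spread between experiments. The experiment on separate slides gave the largest butyrate response and also the largest loss with doxycycline, -1.79.

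The size of the CTGF response moved with the processing. With normexp background correction NaB/Ctl was 5.69 and with scaling to the array median 5.78. Leaving out 1 experiment at a time gave between 6.46 and 6.84.

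The promoter of CTGF is shown because the gene is a textbook TEAD target and the TEAD letters can be seen in it. It is the 250 bases before the start of CCN2 in RefSeq, GRCh38.p14 chr6:131951373-131951622, minus strand, 5′ to 3′, with each GGAATG in capitals.

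CTGF (CCN2): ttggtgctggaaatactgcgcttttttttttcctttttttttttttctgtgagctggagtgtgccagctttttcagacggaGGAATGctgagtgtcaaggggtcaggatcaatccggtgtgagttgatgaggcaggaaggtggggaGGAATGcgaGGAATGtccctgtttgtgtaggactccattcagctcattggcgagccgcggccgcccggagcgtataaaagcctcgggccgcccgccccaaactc

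GGAATG, the core of the motif that TEAD factors bind, was searched on both strands of this window and occurs 3 times on the strand of the gene, from -169 to -164, from -104 to -99 and from -95 to -90 relative to the start. Of 35116 promoters of the same length, 11.9% hold it at least once and 0.0826% at least 3 times. Other motifs were searched on both strands as well. CAGACA (bound by SMAD proteins), CTTTGAT (TCF), TGANTCA (AP-1) and the CArG box (SRF) were not found in these 250 bases, and they occur in 13.6%, 2.26%, 6.57% and 1.16% of all promoters. WISP3, the other member matched in the promoter table, holds GGAATG once, from -128 to -123. CYR61, NOV, WISP1 and WISP2 were not matched. A match of letters is a description of the window and not a measured binding site. Only these exact letters were searched, so variants such as the cagacg in this window, against CAGACA, were not counted.

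CYR61, an immediate-early gene that promotes adhesion and angiogenesis, rose with butyrate as CTGF did, by a smaller fold. Its probe lies on the plus strand of chr1:85821541-85821600 (NCBI36). The level ran from -0.44 to 0.29 on the Ctl arrays (median 0.10), from -0.29 to 0.17 on the Doxy arrays (median -0.03), from 2.06 to 3.17 on the NaB arrays (median 2.70) and from 1.83 to 2.24 on the DoxyNaB arrays (median 2.06). The ranges with and without butyrate were apart, and the NaB and DoxyNaB ranges overlapped, with the NaB array of experiment 3 at the low end.

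Its NaB/Ctl change was 2.65 ± 0.15 (SD, n = 6 experiments, limma adjusted p = 1.8e-14), or 6.28-fold, and all 6 experiments lay between 2.50 and 2.89. It was 2.60 in experiments 2 to 4 and 2.61 in experiments 5 and 6. CYR61 was the 1 member called among the 2 tested besides CTGF, in a comparison where 20.7% of probes were called higher and 11% lower, so a call as such is common here. By size, CYR61 stood at rank 658 of the 18984 probes. All 6 NaB arrays were above all 6 Ctl arrays for CTGF, CYR61 and NOV, as was the case for 24.3% of the probes with a value on all of these arrays. DoxyNaB/Doxy was 2.08 ± 0.07 (SD, n = 6, limma adjusted p = 3.2e-13), or 4.23-fold, and CYR61 was again the 1 of 2 called, against 18.3% of probes called higher and 12.3% lower.

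The butyrate response of CYR61 was larger without doxycycline in 6 of 6 experiments. The difference was 0.57 ± 0.15 (SD, n = 6, 95% confidence interval 0.31 to 0.83), with a limma adjusted p of 0.0154, which is not past the threshold of 0.01, where 1.03% of probes passed with a difference above 0. Without the 2 arrays of highest negative controls the adjusted p was 0.0058, and over the alternatives it ran from 0.0058 to 0.996. The difference was 0.48 in experiments 2 to 4 and 0.58 in experiments 5 and 6, where the adjusted p was 0.996 and 0.271. In these fits of fewer arrays, 2 of 18983 and 0 of 18959 probes passed 0.01 with a difference above 0. In DoxyNaB against NaB cells CYR61 was lower in 6 of 6 experiments, with a change of -0.67 ± 0.28 (SD, n = 6), to 63.0% of the NaB signal. Its limma adjusted p was 7.7e-05, but the change was under 2-fold, so neither CYR61 nor NOV was called, where 0.253% of probes were called lower. Both had an unadjusted limma p under 0.05 there (2 of 2, and 2 of 2 by the methods' t-test), as had 15.3% and 12.9% of all probes by these tests. CTGF was the 1 member with all DoxyNaB arrays below all NaB arrays, which was so for 1.29% of probes. As the family was chosen for the response of CTGF, this share is a description and not a test of it. The change of CYR61 with doxycycline alone was -0.10 ± 0.18 (SD, n = 6, limma adjusted p = 0.738), and that of NOV -0.15 ± 0.22 (SD, n = 6, adjusted p = 0.432). In Doxy/Ctl 0 of these 2 members were called and 0 had an unadjusted p under 0.05 by limma or by the methods' t-test, where 0.0948% of all probes were called in either direction and 12.6% and 18.6% had such a p.

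**Figure D2:**
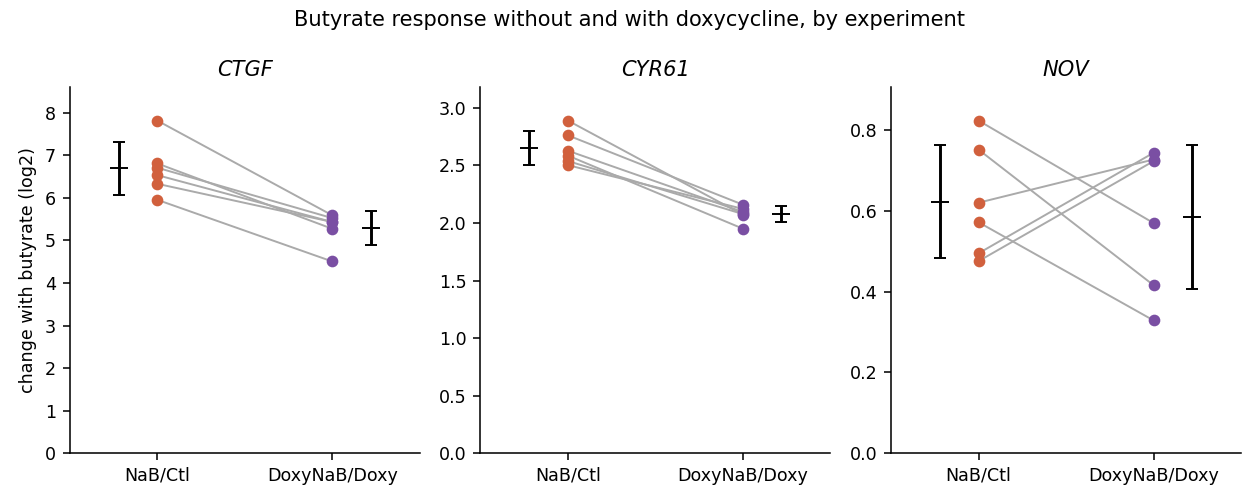
Change with butyrate (log2) in each of the 6 experiments for CTGF, CYR61 and NOV, without doxycycline (NaB/Ctl) and with it (DoxyNaB/Doxy). Each line joins 1 experiment, bars give the mean and SD, and each panel has its own vertical scale from 0. All 6 lines fall for CTGF and CYR61, by 1.40 and 0.57 on average, and for NOV 3 fall and 3 rise.

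NOV, a member linked to quiescence in many cell types, stayed under 2-fold. Its probe lies on the plus strand of chr8:120505616-120505675 (NCBI36). The level ran from -1.59 to -1.02 on the Ctl arrays (median -1.12), from -1.66 to -0.91 on the Doxy arrays (median -1.42), from -0.97 to -0.26 on the NaB arrays (median -0.57) and from -0.96 to -0.47 on the DoxyNaB arrays (median -0.81). The NaB arrays were all above the Ctl arrays, by a narrow margin, while the DoxyNaB and Doxy ranges overlapped.

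NaB/Ctl was 0.62 ± 0.14 for NOV (SD, n = 6, limma adjusted p = 7.8e-07) and DoxyNaB/Doxy was 0.58 ± 0.18 (SD, n = 6, adjusted p = 1.8e-06), positive in 6 of 6 experiments each. The median change of all probes tested was 0.17 in NaB/Ctl, so NOV was 0.45 above it. The sign of its change depended on the scaling. With arrays scaled to their median, NaB/Ctl was -0.28 for NOV (adjusted p = 0.297), while the median of all probes was -0.74. Relative to the median of all probes NOV was then 0.45 higher, as before, and CTGF and CYR61 were 6.52 and 2.48 higher. Both scalings shift all probes of an array alike, apart from a floor on low signals, so this agreement is no separate check. The butyrate response of NOV differed by 0.04 ± 0.27 without against with doxycycline (SD, n = 6, limma adjusted p = 0.931, 95% confidence interval -0.19 to 0.27), above 0 in 3 of 6 experiments. The DoxyNaB/NaB change was -0.19 ± 0.18 (SD, n = 6, adjusted p = 0.211).

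WISP1, WISP2 and WISP3 failed the filter, and their dim values bound their levels only. WISP1, a Wnt-1-induced gene of stromal cells, has its probe on the plus strand of chr8:134309049-134309108 (NCBI36). It was detected well above background on 1 Ctl array, 1 Doxy array and none of the 12 arrays with butyrate, with signals between 3.28 and 43.3. On 10 arrays its signal was a surrogate that the software had set in place of a value too close to the negative controls. The 2 detected arrays were Ctl of experiment 2 (signal 27.6) and Doxy of experiment 6 (signal 20.9), and all other WISP1 arrays have no measured order.

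WISP2 and WISP3 were detected in 1 scan and not in the others, in every treatment. WISP2, on the plus strand of chr20:42789761-42789820 (NCBI36), was well above background throughout the 12 arrays of experiments 2 to 4, with signals between 50.7 and 863.1, and on none of the other 12, with signals between 5.29 and 20.5. WISP3, on the plus strand of chr6:112496166-112496225 (NCBI36), split in the same way, with signals between 31.3 and 554.2 and between 2.91 and 8.74. The share of spots well above background was also higher in experiments 2 to 4, as given above. Within those experiments the signal of WISP2 was between 50.7 and 140.7 on Ctl arrays and between 252.6 and 450.5 on NaB arrays, and that of WISP3 between 32.1 and 88.7 and between 154.9 and 320.2. The negative controls of these same arrays had a mean net signal between 63.1 and 76.9 for Ctl and between 112.1 and 161 for NaB. These control values are not on the scale of the probe signals. On the Ctl array of experiment 3, for example, a probe signal of 16.6 was well above background and the controls were at 68.4. The highest WISP3 signal (554.2) was on the DoxyNaB array of experiment 2, which had the highest negative controls (248.9), and the highest WISP2 signal (863.1) was on the Doxy array of experiment 4, where they were at 79.6. The part of the scan and of the negative controls in these values was not tested.

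**Figure D3:**
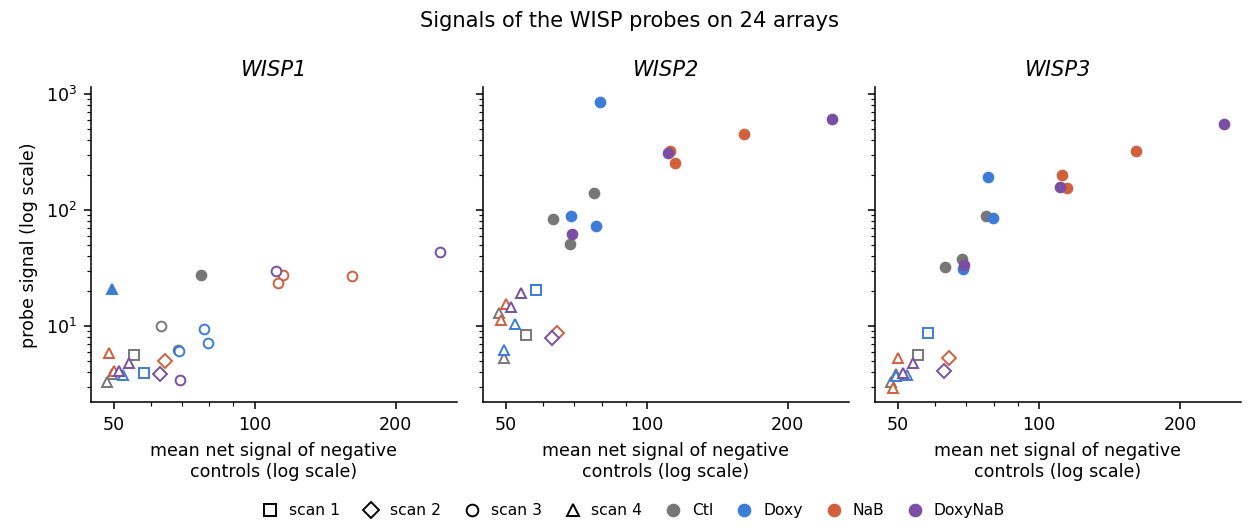
Signal of the WISP1, WISP2 and WISP3 probes on each of 24 arrays against the mean net signal of negative control spots on that array, both on log scales. Shapes give the scan (experiment 1 without butyrate, experiment 1 with butyrate, experiments 2 to 4, experiments 5 and 6), colours the treatment, and filled points are well above background. The filled points of WISP2 and WISP3 are all of the third scan, and within it the arrays with higher negative controls tend to have higher signals, apart from the Doxy array at 863.1 for WISP2.

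The genes around the family were described from lists of its regulators, partners and relatives, where 20.7% of all probes tested were higher and 11% lower in NaB/Ctl with a median of 0.17. Of the 3931 probes called higher, 1076 had passed the filter only through a group with butyrate, and of the 2086 called lower, 231 only through a group without it. Among YAP and TEAD target genes other than the CCN members, 14 of 20 were tested, 4 were called higher and 6 lower, and the median was -0.30. Of the genes called higher, 2 passed the filter only through the butyrate groups, where they are high, and their changes are given as a description. CCDC80, a secreted matrix protein, and ANKRD1, a nuclear cofactor, were each well above background on 3 of the Ctl arrays and on all 12 arrays with butyrate, and their measured means differed by 4.59 and 4.54. NUAK2 and ASAP1 rose by 1.34 and 1.11. AXL, a receptor tyrosine kinase, fell by 3.07 (adjusted p = 1.6e-13) and MYOF, a membrane repair protein, fell by 2.64 (adjusted p = 4.6e-13 over the arrays with a value). The list thus split while CTGF and CYR61 rose. In the promoter table, 7 of the 15 listed genes that were matched (46.7%) hold GGAATG in the 250 bases before the start. These include ANKRD1 and AXL, which moved in opposite directions. A listed gene was counted if any of its promoters held it, whereas the 11.9% of all 35116 promoters counts each promoter, so the shares are not alike.

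Of the components of the Hippo pathway itself 20 of 21 were tested, 2 were higher and 3 lower, with a median of -0.23. The genes called lower were YAP1, the coactivator (-2.01, adjusted p = 4.4e-12), and its DNA-binding partners TEAD4 (-1.23, adjusted p = 6.9e-09) and TEAD2 (-2.27). TEAD2 passed the filter only through the groups without butyrate and was well above background on 5 of the NaB arrays, so its change is a description. The junctional proteins AMOT and FRMD6 rose by 2.29 and 1.40. AMOTL2, a YAP target and a binder of YAP, fell with both agents together. Its NaB/Ctl change was -0.37 and its DoxyNaB/Doxy change -1.67, so that it was -1.27 in DoxyNaB/NaB (adjusted p = 1.9e-09), and the interaction was 1.31 (adjusted p = 3.4e-07). It was the 1 gene of both lists with an interaction past 0.01.

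In the TGF-beta pathway, 8 of 12 ligands, receptors and SMADs were tested, with a median of -0.14. TGFBR3, LTBP1 and the ligand TGFB1 rose by 1.56, 1.36 and 1.19, while the transducer SMAD3 fell by 2.31 (adjusted p = 2.7e-13) and the receptor TGFBR2 fell by 1.13 (adjusted p = 1.3e-10). The rise of TGFB1 was larger without doxycycline (interaction 0.74, adjusted p = 9.1e-04). The interaction of TGFBR2 also passed (0.52, adjusted p = 0.0080), but TGFBR2 fell, and its fall was larger with doxycycline. Of TGF-beta target genes 9 of 12 were tested, 5 were higher and 2 lower, with a median of 1.09, and 1 gene in each direction (TGFBI higher, BHLHE40 lower) had passed the filter only through groups in which it was high. The balance depended on the scaling, with 2 higher and 2 lower under normexp, 3 and 3 under quantile normalization, and 2 and 4 with a median of 0.20 under scaling to the median. PMEPA1, a feedback inhibitor that was well above background on 4 of the Ctl arrays, rose by 2.72. TGIF1, a repressor of SMAD activity, fell by 2.38 with an interaction of 0.81 (adjusted p = 4.7e-04). The SRF and MRTF targets, another input into CTGF and CYR61, gave 2 higher and 1 lower of 13 tested, with a median of -0.03. The actin crosslinker FLNA rose by 1.04. CNN1, a smooth muscle calponin, passed the filter only through the butyrate groups and was well above background on 4 of the Ctl arrays, with measured means 3.41 apart. FHL2 fell by 1.31 with an interaction of 0.70 (adjusted p = 2.1e-04).

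Of the receptors and partners that bind CCN proteins, 15 of 20 were tested, 6 were higher and 2 lower, with a median of 0.49. The heparan sulfate proteoglycan SDC4 rose by 1.68. LRP1, an endocytic receptor of CTGF, passed the filter only through the butyrate groups and was well above background on 3 of the Ctl arrays, with measured means 2.09 apart. The integrin subunit ITGB5 fell by 1.84 (adjusted p = 4.5e-13). BMP4, a growth factor that CTGF binds and a Wnt target, fell by 1.52 with butyrate and by 1.31 in DoxyNaB/NaB, with an interaction of 0.99 (adjusted p = 1.5e-05). TGFB1, another ligand in this list, was the other gene of it with an interaction past 0.01. IGFBP2 and IGFBP6, the 2 of 7 IGF-binding proteins tested, changed by 0.40 and -0.95, under 2-fold.

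Other matricellular proteins share the mode of action of CCN proteins but are not members of the family. Of 8 tested among 11 genes, 5 were higher and 1 lower with butyrate, with a median of 1.34. The counts were 2 and 1 under normexp, 4 and 2 under quantile normalization, and 3 and 2 under scaling to the median. THBS1, thrombospondin, rose by 3.94 (adjusted p = 8.9e-14) and the osteopontin gene SPP1 by 3.30 (adjusted p = 8.4e-13). The tenascin TNC passed the filter only through the butyrate groups and was well above background on 2 of the Ctl arrays, with measured means 2.96 apart. TNXB and FBLN5 rose by 1.47 and 1.21. SPARC fell by 1.78 (adjusted p = 1.7e-07). None of these had an interaction past 0.01, and that of THBS1 was 0.21 (adjusted p = 0.771). Of the marker genes of other cell types, THY1 was well above background on none of the Ctl arrays and all NaB arrays. It passed the filter only through the butyrate groups, so its change is a description. With the authors' processed signal it was at least 24.3-fold higher in NaB cells. This bound was taken against the lowest signal well above background on each Ctl array. It does not carry over to normexp, where the log2 change of THY1 was 2.28, which is below the bound.

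**Figure D4:**
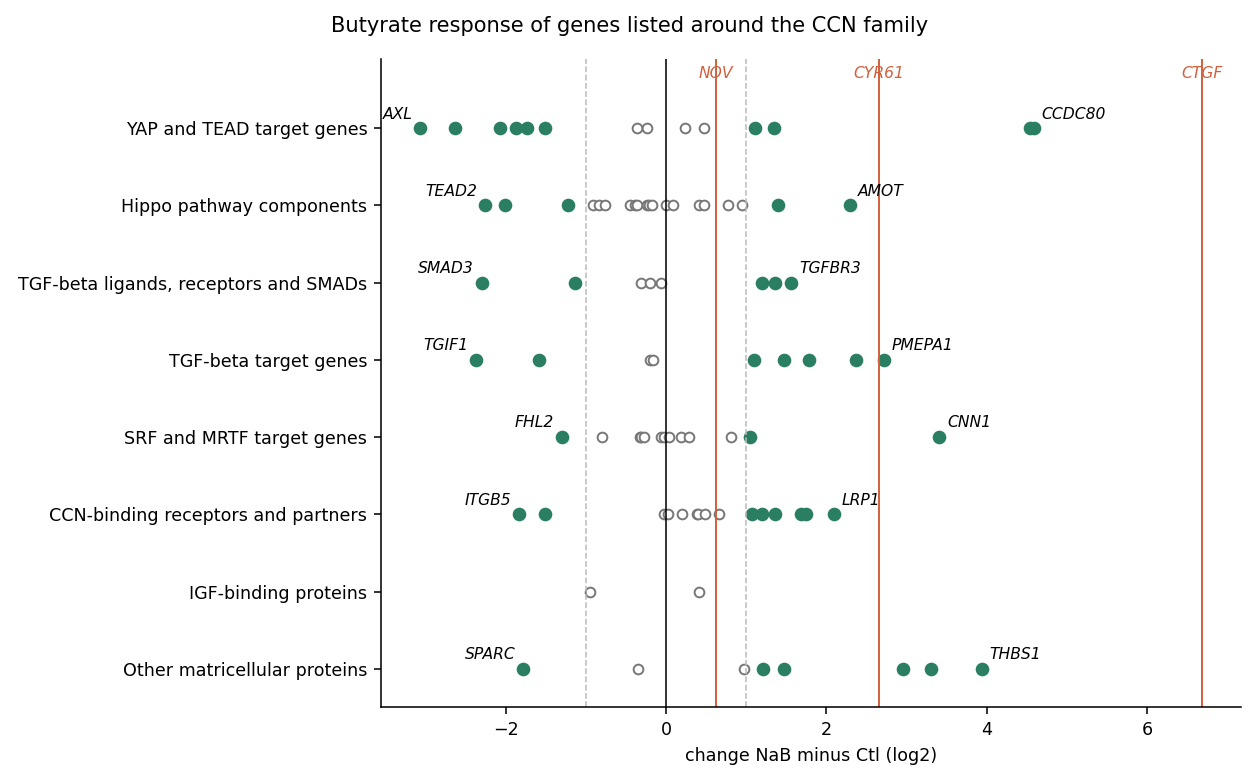
Change between NaB and Ctl cells (log2) of each tested gene of the 8 lists, 1 point for each gene. Filled points were called at a fold over 2 and an adjusted p under 0.01, open points were not, dashed lines mark a 2-fold change and vertical lines mark NOV (0.62), CYR61 (2.65) and CTGF (6.69). No listed gene rose as far as CTGF, and the YAP and TEAD targets lie on both sides of 0.

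Under normexp and quantile normalization, 0 of the 43 listed genes called in NaB/Ctl turned in sign. The shift by scaling to the median was near-constant and smaller than the 2-fold of a call, so no called sign could turn there. Of the 43 genes, 23 kept their call under normexp, quantile normalization and scaling to the median alike. Scaling to the median, which lowered the median of all probes to -0.74, left 2 higher and 8 lower among the YAP and TEAD targets, 1 and 12 in the Hippo pathway, 0 and 4 among TGF-beta ligands, receptors and SMADs, 1 and 5 among the SRF and MRTF targets, and 1 and 2 among the receptors and partners. The interaction was past 0.01 for 6 listed genes, and it stayed so for 3 with normexp (AMOTL2, FHL2 and BMP4), for 5 with quantile normalization and for 0 with scaling to the median. Of all probes tested, 1.03% passed with a difference above 0. That share was 0.195% with normexp, 0.795% with quantile normalization and 0% with scaling to the median, so the loss was not particular to the listed genes.

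The genes whose pattern was most like that of CTGF were found by Pearson's r over the 24 arrays, after each probe was centred on the mean of its experiment. The arrays share 4 treatments and are not independent points. The 10 highest were LINC02899 (r = 0.996, named C5orf17 in the files), PHOSPHO1, the transcript ENST00000407622, LAMA3, BAMBI, H2BC11, LOXL2, PPP1R14C, LCA5 and RHOB (r = 0.994). LAMA3 encodes a laminin chain, LOXL2 a collagen-crosslinking oxidase, BAMBI a decoy receptor of TGF-beta and RHOB a small GTPase of the actin cytoskeleton. Their NaB/Ctl changes lay between 1.57 for PPP1R14C and 4.74 for ENST00000407622, all under that of CTGF, and their interactions between 0.31 for PPP1R14C and 0.54 for LAMA3. None of these interactions passed an adjusted p of 0.01, the lowest being that of LOXL2 (adjusted p = 0.0207). The lowest r were those of TAPBP (r = -0.994), CERS2, S100A2, S100A16 and FOSL1 (r = -0.991). FOSL1, an AP-1 subunit, changed by -3.45 in NaB/Ctl. CYR61 stood at rank 19 of 15162 genes (r = 0.993) and NOV at rank 2647 (r = 0.933).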

How the data were processed

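RNA of 24 cultures was hybridised by the study's array provider to 1-colour Agilent human 4x44K arrays. The deposited files hold spot intensities from Agilent Feature Extraction 9.5.3.1, and per the file headers the authors' processed signal had background and spatial trend removed within each array, with no scaling between arrays. Here control spots and outlier spots (359 to 795 an array) were left out, and log2 values were taken relative to the 75th percentile of the remaining spots (signal 380.2 to 1323) and averaged over the spots of a probe. Probe positions are on NCBI36, as in the files, and symbols were updated through RefSeq (GRCh38.p14). The number of arrays limits the precision.

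Groups came from the sample labels. The fit used limma 3.58.1 in R 4.3.3 (lmFit, eBayes) on 18984 probes and 4 treatments. Experiment was the block, since the study used paired tests over 6 biological replicates. Within an experiment, deviations from treatment means correlated with r of 0.218 to 0.851, apart from -0.217 between NaB and DoxyNaB of experiment 3. Scripts were tested on simulated data. The interaction is the butyrate response without minus with doxycycline, called at an adjusted p under 0.01. Of several probes of a gene, the brightest on average was used. Versions were Python 3.11.15 with matplotlib 3.10.9, numpy 2.4.6 and pandas 2.3.3.

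The members, the gene lists and the tests were chosen with earlier results of these data known. Named genes are the 6 members, list genes called in NaB/Ctl or the interaction (at most 4 a list by size, and those a count of 5 or fewer refers to), and the 10 and 5 genes of highest and lowest r to CTGF. The alternatives changed the background correction (normexp, offset 50), the scaling (quantile, or to the median above a floor of 5), the filter (none, or detection on every array), the block (none, or slide), the arrays in the fit, the test (the methods' paired t-test), the thresholds (adjusted p of 0.05, fold of 1.5) and the experiments. Chosen after seeing the data were fits that left out the 2 arrays of highest negative controls, fits within the third and the fourth scan, and a percentile over probes. Values of some listed genes are not reported here.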

Additional observations from a re-analysis of the deposited data

Results flagged for a closer look

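The butyrate response of CYR61 was larger without doxycycline, with a difference of 0.57 on the log2 scale that passed an adjusted p of 0.05 in the limma fit (0.0154) but not 0.01. In the fits within experiments 2 to 4 and within experiments 5 and 6 it was of the same sign and did not pass. These fits hold few arrays, and 2 of 18983 and 0 of 18959 probes passed 0.01 there with a difference above 0.

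Of 16 sets of 6 values of CYR61 and NOV examined with Dixon's test, 1 held a value far from the others, where chance alone gives about 1 in 20. The NOV level on the Ctl array of experiment 1 was -1.59, below the other Ctl arrays.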

How the results depend on the processing

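CTGF and CYR61 were higher with butyrate under every alternative run. The CTGF change in NaB/Ctl was 6.69, against 5.69 under normexp and 5.78 under median scaling, and between 6.46 and 6.84 when each experiment was left out. With a fold threshold of 1.5, NOV joined CYR61 in NaB/Ctl (2 members other than CTGF called), and CYR61 was called in DoxyNaB/NaB (1). The interaction called 1 of these members, CYR61, at an adjusted p of 0.05, by the methods' t-test without adjustment, and without the 2 arrays of highest negative controls. In these settings 1.81%, 3.35% and 1.15% of all probes were called with a difference above 0. Without the replicate block that pairs arrays of an experiment, the interaction of CYR61 was still 0.57 but its adjusted p was 0.628, and its DoxyNaB/NaB adjusted p was 0.0271. Neither value was called with the block, so the block changed no call of a member.

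The sign of NOV was not stable. With scaling to the median it was -0.28 in NaB/Ctl and -0.0647 in DoxyNaB/Doxy, within experiments 5 and 6 it was 0.0863 in Doxy/Ctl, and its interaction of 0.04 became -0.0687 with normexp, -0.22 with scaling to the median, -0.0218 without the 2 arrays of highest negative controls and -0.0845 within experiments 2 to 4, with a range from -0.0213 to 0.0956 when each experiment was left out. The cause was not tested. Scaling also moved the share of probes called higher among all called in NaB/Ctl from 65.3% to 53.4% (normexp), 43.8% (quantile) and 15.9% (median scaling), and the counts of probes called higher from 3931 to 1629, 2464 and 1390. The counts called lower went from 2086 to 1420, 3165 and 7349. Of the 43 listed genes called in NaB/Ctl, normexp kept 28 calls, quantile normalization 36 and scaling to the median 27. Signal over background limits WISP1, WISP2 and WISP3, and the Ctl levels of CTGF.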
